A study of Saccharomyces cerevisiae with 20 samples.

Results

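Deletion of ISW2 was compared with wild type in Saccharomyces cerevisiae at the diauxic shift, the point at which a culture has used up its glucose and turns to respiration. The comparison held 4 of the 20 poly(A) RNA-seq libraries of the series, 2 from Δisw2 cells and 2 from wild type cells, and took in all 6843 genes of the table that the authors made for this pair, with no choice of genes by their values. All strains were W303, a laboratory background, and every culture was grown in 25 mL of YPD, a rich glucose medium, at 30 °C. In Δisw2 cells the ISW2 gene had been replaced by an antibiotic marker, so that the marker differs between the strains along with ISW2. The series also holds Δtup1, Δsds3 and Δxbp1 cells and a second harvest of every strain in stationary phase. The study calls the libraries of the other deletions, which are compared with the same wild type libraries, biological replicates, and does not say this of the Δisw2 libraries in so many words. The p-values measure the spread between the libraries of a group.

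Isw2 is the ATPase of an ISWI-family chromatin remodeler that slides nucleosomes and works in a complex with Itc1, Dpb4 and Dls1. It is best known as a repressor that moves nucleosomes over promoters and keeps transcription off. The DNA-binding protein Ume6 brings both Isw2 and the Sin3-Rpd3 histone deacetylase, of which Sds3 is a subunit, to early meiotic genes through a promoter element called URS1. In vegetative cells these genes are kept silent, and they are switched on when diploid cells are starved and enter meiosis. Isw2 has also been linked to repression by the Tup1 corepressor.

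Between 25508535 and 30430109 reads lay on genes in the Δisw2 libraries, and between 29836077 and 32558227 in the wild type libraries. Levels below are the deposited normalized counts, that is, reads divided by a size factor for the library, and they are not corrected for gene length. Differences are on the scale of log2(normalized count + 1), Δisw2 minus wild type, which understates the change of low genes. Of the 6843 genes, 6247 had enough reads to be tested. Replicates differed by 2-fold or more for 4.18% of genes in Δisw2 and for 6.69% in wild type, and wild type replicate 1 correlated least well with the other libraries (r between 0.967 and 0.979 over genes, against 0.977 to 0.988 for wild type replicate 2). The median difference over all genes tested was 0.00.

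The deleted gene checked the labels. ISW2, at chromosome XV positions 884514 to 887876 of the R64 assembly, had 1 and 3 reads in the Δisw2 libraries, or normalized counts of 1.19 and 2.95, against 1616 and 1738 in the wild type libraries. Taken against a floor of 3 reads in each Δisw2 library, ISW2 RNA was at least 514-fold lower in Δisw2 cells. The annotated genes on either side moved much less. YOR302W and CPA1 upstream differed by 0.42 ± 0.25 and 0.19 ± 0.27 (log2 difference ± standard error), and BIL1 and RRG7 downstream by -0.57 ± 0.26 and -0.78 ± 0.34, none past the test (limma adjusted p = 0.999 for each). In each of these neighbours the groups did not overlap. RRG7, with 446 and 315 in Δisw2 against 860 and 486 in wild type, was lower by more than 1.5-fold. Of all genes tested, 3.25% stood apart and lower in this way.

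Apart from ISW2, few genes passed the test at this replication. With limma, an adjusted p under 0.05 and at least a 1.5-fold difference, 6 genes were called, which is 0.096% of those tested. Of these, 4 were higher in Δisw2 (0.064% of genes) and 2 were lower (0.032%), and 1 of the lower genes was ISW2 itself. The edgeR quasi-likelihood test called the same 6. At an unadjusted p under 0.05, 97 genes were higher and 123 lower by 1.5-fold or more. In data simulated from these libraries the test recovered 93% of 4-fold changes but 29% of 2-fold changes (100 genes each). Changes of about 2-fold were thus often not detectable here. The test also called 10 of 5998 genes simulated without a change (0.167%), against 0.096% of genes called in the measured libraries. Some of the calls made here could thus be false. RNA was measured on whole cultures, and a rise in some of the cells cannot be told apart from a rise in all of them.

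**Figure D1:**
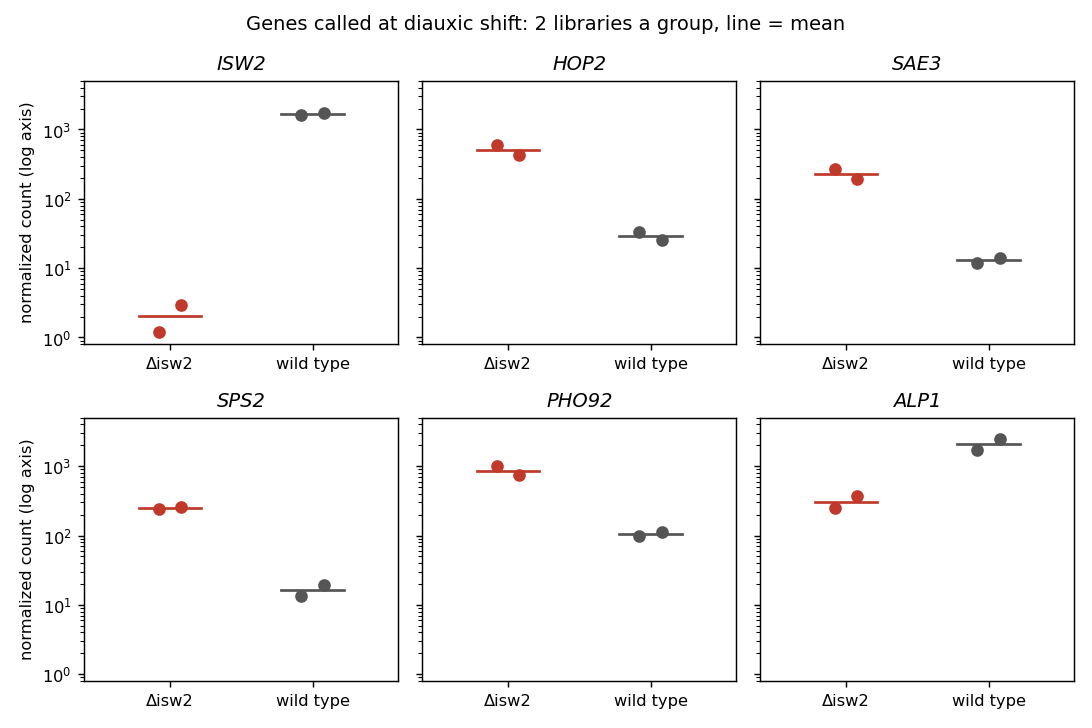
Normalized counts, on a log axis, of the 6 genes called by limma at diauxic shift, with 2 Δisw2 libraries (left, red) and 2 wild type libraries (right, grey) in each panel and lines at the group means. HOP2, SAE3, SPS2 and PHO92 lie at 192 or above in Δisw2 and at 112 or below in wild type, while ISW2 and ALP1 are lower in Δisw2.

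The 4 genes that limma called higher are known from meiosis or sporulation and stood at 112 or below in wild type. HUG1, a DNA damage gene described further on, had a larger difference but was not called by limma. HOP2, whose product works with Mnd1 to align homologous chromosomes and to help Dmc1 in strand invasion, had normalized counts of 590.5 and 434 in Δisw2 against 33.4 and 25.4 in wild type. SAE3, whose product loads Dmc1 on DNA together with Mei5, had 272 and 192 in Δisw2 against 11.7 and 14.2 in wild type. Neither gene's groups came near each other, and the rises were 16.8-fold for HOP2 (log2 difference 4.07 ± 0.33, SE, limma adjusted p = 0.018) and 16.5-fold for SAE3 (4.04 ± 0.40, limma adjusted p = 0.025).

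SPS2 encodes a protein of the spore wall and is turned on in the middle of sporulation. It had 242 and 255 in Δisw2 against 13.4 and 19.3 in wild type, a 14.6-fold rise (3.87 ± 0.38, limma adjusted p = 0.025). Its neighbour SPS1, a protein kinase needed for spore formation that lies next to it on chromosome IV, had 216 and 191 in Δisw2 against 252 and 272 in wild type (-0.37 ± 0.26, limma adjusted p = 0.999). PHO92 encodes a YTH-domain protein that binds N6-methyladenosine in mRNA, a mark that yeast places on transcripts in meiosis. PHO92 had 993 and 739 in Δisw2 against 99.4 and 112 in wild type, an 8.05-fold rise (3.01 ± 0.27, limma adjusted p = 0.022). The 4 genes lie on chromosomes VII, VIII and IV, SPS2 and PHO92 both on IV, and none of the next 2 annotated genes on either side of each was called. In an alternative in which all 10 diauxic shift libraries shared one limma fit, PHO92 was called but HOP2 (limma adjusted p = 0.247), SAE3 (0.132) and SPS2 (0.060) were not.

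The promoters of 3 of these 4 genes hold the letters AGCCGCC, the core of URS1, within a window of 250 bases before to 50 bases after the start codon. HOP2, SAE3 and PHO92 have them and SPS2 does not. The letters, searched on both strands, stand in 130 of 6001 such windows (2.17%). The sites are printed here because 3 of the 4 genes called higher by limma hold them, with the core in capitals and each printed 5′ to 3′ on the strand that reads AGCCGCC, from the RefSeq R64 genome, which is the sacCer3 build. DMC1, SLZ1 and SRT1, which are described further on, are included, as are MEI5 and SPO16.
HOP2, chrVII:435485-435513, minus strand, core 129 bases upstream of the start codon: atggaaaatttAGCCGCCgaggacataat
SAE3, chrVIII:262645-262673, plus strand, 109 bases upstream: agaaatagaatAGCCGCCattaggcagaa
PHO92, chrIV:1224606-1224634, plus strand, 229 bases upstream: ccaaaaagattAGCCGCCgaggtacatcg
DMC1, chrV:548271-548299, plus strand, 139 bases upstream: gaccggaaaatAGCCGCCcaaggataaac
SLZ1, chrXIV:271290-271318, minus strand, 136 bases upstream: acaatatgaatAGCCGCCgaaattatgcc
SRT1, chrXIII:469603-469631, plus strand, 144 bases upstream: agtatagctttAGCCGCCgaggtccactc
MEI5, chrXVI:321740-321768, minus strand, 127 bases upstream: gaaaaagtattAGCCGCCcaaacttctat
SPO16, chrVIII:402753-402781, plus strand, 88 bases upstream: ttctcggttttAGCCGCCcacttttcacg
The match is a description of the sequence, and binding was not measured in these libraries.

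Early meiotic genes as a group did not all follow HOP2 and SAE3. Of 37 listed genes 36 were tested. Of these 2 were called higher and none lower, against 0.064% and 0.032% of all genes. The median difference was 0.08 (0.01 to 0.25 with 1 library left out), against 0.00 over all genes. The remaining gene, MER1, had between 1 and 3 reads in every library. In 11 of the 36 (30.6%) both Δisw2 libraries lay above both wild type libraries with at least a 1.5-fold difference, against 163 of all genes (2.61%), and in 1 gene, MEI4, they lay below, against 203 of all genes (3.25%). The list was drawn up with earlier results of these data known, and no test was made of it.

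The other genes of this kind that stood apart act mainly in recombination and in the first meiotic division. DMC1, the recombinase of meiotic cells, had 1460.1 and 1389 in Δisw2 against 209 and 437 in wild type (2.23 ± 0.35, limma adjusted p = 0.175). SPO16, a subunit of a crossover complex, had 168 and 157 in Δisw2 against 43.4 and 72.2 in wild type (1.52 ± 0.37, limma adjusted p = 0.608). MEI5, the partner of Sae3, was barely expressed, with 20.3 and 27.5 in Δisw2 against 12.5 and 3.05 in wild type. These genes had groups that did not overlap but, unlike HOP2 and SAE3, they did not pass limma's test.

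SPO13, which keeps sister chromatids together in the first division, had 72.8 and 64.8 in Δisw2 against 30.1 and 41.7 in wild type. MEK1, a checkpoint kinase of meiotic recombination, had 152 and 204 in Δisw2 against 91.1 and 114 in wild type. IME1, the master regulator that acts with Ume6 to switch the early genes on, varied so much between replicates, with 7809 and 1181 in Δisw2 against 5338 and 2980 in wild type, that no direction could be read. IME2, the kinase that Ime1 induces, differed by -0.12 ± 0.24. Below SPO13 no member exceeded 0.83 (ECM11), and MEI4 was lowest at -0.68.

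MND1, the partner of HOP2, had a smaller difference, with 212 and 169 in Δisw2 against 96.1 and 141 in wild type (0.70 ± 0.33, limma adjusted p = 0.999). REC102, which acts with Spo11 in making double-strand breaks, had 326 and 432 in Δisw2 against 191 and 266 in wild type. MEI4, another gene of break formation, had 77.5 and 84.5 in Δisw2 against 118 and 143 in wild type. These genes of break formation lay on both sides of 0. In stationary phase SPO16 had 73.5 and 53.3 in Δisw2 against 25.5 and 25.2 in wild type, but MND1 had 117 and 117 in Δisw2 against 119 and 106 in wild type.

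**Figure D2:**
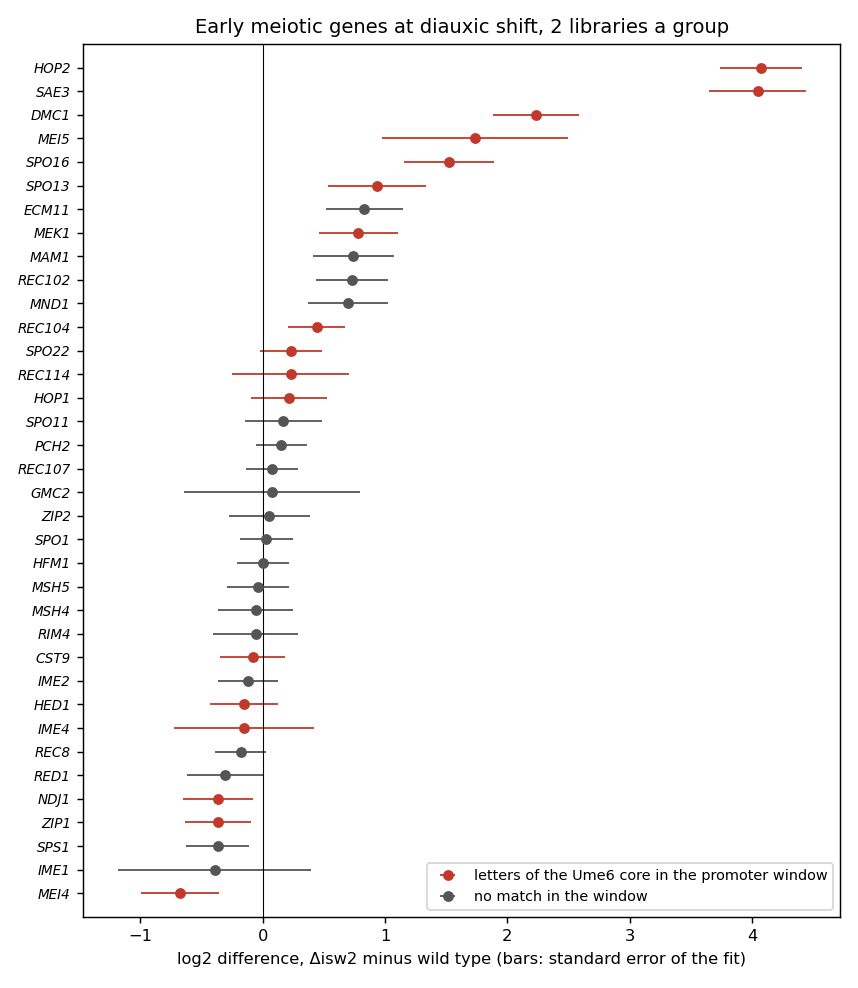
Log2 difference, Δisw2 minus wild type, of 36 early meiotic genes at diauxic shift, with bars for the standard error of the limma fit (2 libraries a group), red where the promoter window holds the URS1 core letters and grey where it does not. HOP2 and SAE3 stand near 4, DMC1 at 2.23, and most others lie within 1 of 0 on both sides, with MEI4 lowest at -0.68.

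The URS1 letters divided the early meiotic genes only in part. Of 17 early meiotic genes with the letters, 7 stood apart and higher (median difference 0.23), and of 19 without them 4 did (median 0.03). Among all genes tested, 11 of 127 with the letters stood apart and higher (8.66%), against 122 of 5617 without them (2.17%). MEI4, ZIP1 and NDJ1 hold the letters and had differences of -0.68, -0.36 and -0.36.

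Middle and late sporulation genes, which build the spore and its wall, showed the same mixture. Of 43 tested, SPS2 alone was called by limma, against 0.064% of all genes called higher, and the median difference was 0.09 (0.03 to 0.23 with 1 library left out). There were 8 genes (18.6%) apart and higher and 3 (6.98%) apart and lower, against 2.61% and 3.25% of all genes. DIT1, which makes the dityrosine precursor of the spore wall, had 2716 and 2054 in Δisw2 against 665 and 729.98 in wild type, a 3.39-fold difference (1.76 ± 0.23, limma adjusted p = 0.073). RRT12, a protease needed for the same dityrosine layer, went the other way, with 58.5 and 83.5 in Δisw2 against 408 and 482 in wild type, 6.27-fold lower (-2.65 ± 0.31, limma adjusted p = 0.053). Both missed the threshold narrowly, and neither gene's groups overlapped. SMA2, which shapes the membrane of the young spore, had 57.3 and 62.9 in Δisw2 against 12.5 and 20.3 in wild type (1.84 ± 0.47, limma adjusted p = 0.643). NDT80, the transcription factor that turns the middle genes on, was among the 3 that stood apart and lower, with 209.96 and 176 in Δisw2 against 303.2 and 321 in wild type (-0.70 ± 0.26, limma adjusted p = 0.999).

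ALP1 was the only gene other than ISW2 that limma called lower. It encodes a permease for basic amino acids, close kin of the arginine permease Can1 and the lysine permease Lyp1, and had 247 and 371 in Δisw2 against 1733 and 2504 in wild type, a 6.86-fold fall (-2.78 ± 0.30, limma adjusted p = 0.035). The call was lost with no filter on low genes, without the mean-variance trend, and when the change was tested against 1.5-fold (limma adjusted p up to 0.124). CAN1 had 2788 and 3474 in Δisw2 against 3585 and 4077 in wild type (-0.30), and LYP1, the next gene but one to ALP1 on chromosome XIV, had 3063 and 3730.0 in Δisw2 against 4847 and 4650.3 in wild type (-0.49). Of 25 amino acid and peptide permeases tested ALP1 alone was called, against 0.032% of all genes called lower, and the median was -0.27. Of the 25, 3 (12%) had both Δisw2 libraries below both wild type libraries by 1.5-fold or more, against 3.25% of all genes. On the higher side 0 did so, against 2.61%. Only 0.95% of the 37-base stretches of ALP1 occur elsewhere in the genome.

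**Figure D3:**
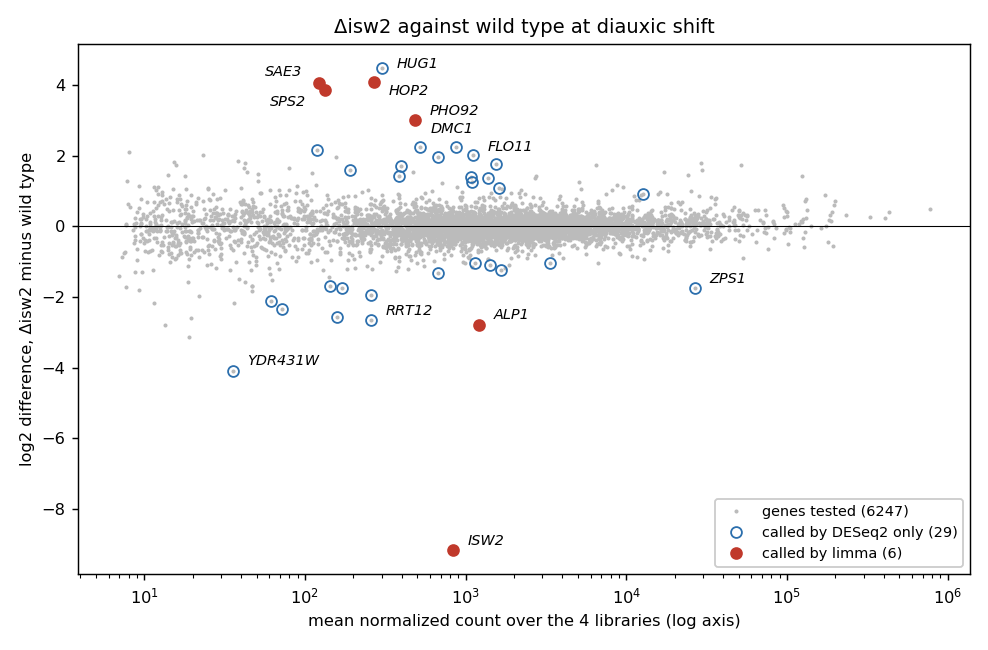
Log2 difference, Δisw2 minus wild type, against the mean normalized count over the 4 libraries (log axis) for the 6247 genes tested at diauxic shift; filled red points are the 6 genes called by limma and open blue circles the 29 called by DESeq2 only. The genes called higher lie well below the most abundant genes, and ISW2 lies alone at -9.15.

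The genes of the subunits that work with Isw2 were still expressed. ITC1, which encodes the other large subunit, had 2351 and 2199 in Δisw2 against 1124 and 1505 in wild type, with no overlap (0.81, limma adjusted p = 0.756). DLS1 had 1824 and 1419 in Δisw2 against 1272 and 1296 in wild type (0.32), and DPB4 had 1395 and 1085 in Δisw2 against 1243 and 1179 in wild type (0.02). Among 17 genes of other remodelers, such as the Isw1, Chd1 and SWI/SNF enzymes, none was called and the differences lay between -0.33 and 0.32. Among 28 recruiters and corepressors none was called either. Only 0.096% of all genes tested were called, so that the lack of a call says little about these lists. UME6 had 1768 and 1714 in Δisw2 against 1489 and 1515 in wild type (0.21), which is no lower in Δisw2.

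DESeq2 on the recovered reads, the tool that the authors used, called more genes. It called 19 genes higher in Δisw2 (0.304%) and 16 lower (0.256%), and these include all 6 of limma's. Those of the 29 further genes that no list or rule had singled out were chosen for mention after their values were seen. The largest rise was that of HUG1, an inhibitor of ribonucleotide reductase that is induced by DNA damage, which had 607 and 548 in Δisw2 against 13.4 and 45.8 in wild type (limma 4.48 ± 0.54, adjusted p = 0.055). The wild type libraries lay far apart from each other, and both lay far below the Δisw2 libraries. Of 44 DNA repair and damage genes, HUG1 alone was called by DESeq2, against 0.304% of all genes called higher, and 4 (9.09%) stood apart and higher, against 2.61% of all genes. The median of the list was 0.01.

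DMC1, SLZ1 and SRT1 were called by DESeq2 as well (adjusted p = 4.2e-06, 0.00019 and 1.3e-08) and share the URS1 letters. SLZ1, a subunit of the complex that methylates adenosine in meiotic mRNA, had 784 and 898 in Δisw2 against 110.3 and 279.6 in wild type. SRT1, a prenyltransferase that acts in spore wall formation, had 1113 and 1029.5 in Δisw2 against 242 and 304 in wild type (limma 1.98 ± 0.23, adjusted p = 0.054). With HOP2, SAE3 and PHO92 they make 6 of the 19 higher genes (31.6%) that have the letters in the window, against none of 14 lower genes with an annotated promoter.

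The other genes called higher by DESeq2 come from several pathways. FLO11, a cell surface flocculin, had 2145 and 1370.4 in Δisw2 against 254 and 700.5 in wild type. The chitin deacetylase gene CDA2, which also serves the spore wall, had 579.8 and 549 in Δisw2 against 245 and 177 in wild type. GPP2, which makes glycerol from its phosphate, had 1451 and 1665 in Δisw2 against 539.6 and 652 in wild type. IMA1, an isomaltase, AIM44, a protein of the bud neck, the epoxide hydrolase gene YNR064C, the phospholipase gene PGC1 and the uncharacterized YGL138C had differences between 0.91 and 2.15. FLO11, IMA1 and HXT13 share 37-base stretches with other places in the genome (33.6%, 12.3% and 45.1% of their stretches), so that their counts could include reads of repeats or relatives.

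Among the lower genes that DESeq2 called and limma did not, the clearest was RRT12. ZPS1, a zinc-regulated cell surface protein, was by far the most abundant of them, with 10673 and 13614 in Δisw2 against 33786 and 48973 in wild type (-1.75 ± 0.30, limma adjusted p = 0.244). PRM2, which acts in nuclear fusion after mating, had 69.2 and 86.5 in Δisw2 against 288 and 236 in wild type. TKL1, the main transketolase of the pentose phosphate pathway, had 847 and 965 in Δisw2 against 1985 and 1843 in wild type. YDR431W and YDR048C, for which R64 has no entry here, had at most 27.5 in Δisw2 and at least 64.1 in wild type. DDI2 shares 94.2% of its 37-base stretches with other places, and its counts cannot be told apart from those of its copy.

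Sugar transporters were of interest because the study followed Isw2 at the HXT genes. Of 23 tested none was called by limma, against 0.096% of all genes, and the median was -0.22. HXT13, a transporter of hexitols, was higher and called by DESeq2, with 246 and 330.1 in Δisw2 against 86.0 and 103.7 in wild type (1.58 ± 0.30, limma adjusted p = 0.319). HXT9 was lower and called by DESeq2, with 71.6 and 61.9 in Δisw2 against 174 and 267 in wild type (-1.68 ± 0.34, limma adjusted p = 0.375). HXT10 and HXT12 also stood apart and lower (-0.98 and -2.16). Of the 23, 4 (17.4%) stood apart and lower and 1 (4.35%) apart and higher, against 3.25% and 2.61% of all genes. HXT9 and its relatives are near-identical (68.3% of the stretches of HXT9 occur elsewhere), and how the authors' counting split their reads is not given in the sources used here. The main transporters HXT1 to HXT7 had differences between -0.51 and 0.16.

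Mating-type genes were checked since Isw2 is known to repress genes specific to a cells in alpha cells. The study does not state the mating type of the strains, so that the values below are not a test of that repression. The a-specific MFA1 stood at 4644 and 4712 in Δisw2 against 3255 and 4280.2 in wild type, and the alpha-specific MF(ALPHA)1 at 338 and 201 in Δisw2 against 145 and 139 in wild type. None of 7 a-specific and 5 alpha-specific genes was called by limma, though all 12 had differences above 0 (medians 0.37 and 0.76), as did 3102 of all 6247 genes. Of the alpha-specific genes 3 (60%) stood apart and higher, and of the a-specific genes 1 (14.3%), against 2.61% of all genes. Among the 3 was MF(ALPHA)2, which had only 23 and 16 reads in Δisw2 against 15 and 11 in wild type. STE2, the alpha-factor receptor, had 2632 and 2928 in Δisw2 against 1400.0 and 1767 in wild type (0.82, limma adjusted p = 0.708). AFB1, a barrier to a-factor, was called by DESeq2, with 2346 and 1667 in Δisw2 against 737 and 793 in wild type (1.37 ± 0.24).

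Most other processes held no called gene. Limma called no gene in 34 of the 38 lists examined, among them the TCA cycle, beta-oxidation, trehalose and glycogen, iron, phosphate, sulfur, ergosterol, ribosomal proteins and histones. Only 0.096% of all genes tested were called, so that a list without a call says little about its process. Several lists lay mostly on one side of 0, against 3145 of all 6247 genes below 0. In oxidative phosphorylation 33 of 36 genes lay below 0 (median -0.31) and in ribosome biogenesis 65 of 76 did (median -0.25). Above 0 lay 19 of 21 genes of glycolysis and fermentation (median 0.26), 16 of 17 of beta-oxidation (median 0.26) and 27 of 35 stress-induced chaperones and hydrophilins (median 0.29). In none of these 5 lists did the list medians of the Δisw2 libraries stand apart from those of the wild type libraries. Relative to each gene's mean over the 4 libraries, the list median of oxidative phosphorylation was 0.05 and -0.34 in the Δisw2 libraries, against 0.41 and -0.09 in the wild type libraries. Within each replicate number this median was lower in Δisw2, and those of beta-oxidation and of the chaperones were higher. Those of ribosome biogenesis and glycolysis changed sides between the numbers. Whether the numbers pair the libraries cannot be told. For ribosome biogenesis the median difference was -0.04 without wild type replicate 1 and -0.44 without wild type replicate 2.

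Wild type and Δisw2 cells in stationary phase give a second look with other libraries, none shared with the diauxic shift. The Δisw2 library called B here carries a different column number from the other Δisw2 libraries. It was taken as Δisw2 because the authors' comparison held only wild type and Δisw2, and ISW2 differed by -7.62 there. Reads on genes numbered 28421881 and 4424289 in wild type libraries A and B, and 10647647 and 3076006 in Δisw2 libraries A and B. Library B of each group was thus much shallower than library A, and shallower than the diauxic shift libraries. In stationary phase 114 of 5953 genes were called (1.92%), 72 of them higher in Δisw2 (1.21%) and 42 lower (0.706%). All 6 genes called at diauxic shift were called in stationary phase too, in the same direction. HOP2 had 292 and 354 in Δisw2 against 36.2 and 41.5 in wild type there, SAE3 had 88.2 and 115 in Δisw2 against 20.2 and 7.21 in wild type, and ALP1 had 98.5 and 85.3 in Δisw2 against 225 and 279.5 in wild type. Of the 19 genes that DESeq2 called higher at diauxic shift, 19 were above 0 in stationary phase and 17 were called higher by limma. Of the 16 called lower, 16 were below 0 and 4 were called lower. ISW2, which is deleted in both phases, is among the 16 and among these 4. The 16 also hold 4 genes of Ty retrotransposons, which share most of their sequence and are not independent.

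The size of the differences in the phases was compared gene by gene. The log2 difference at diauxic shift minus that in stationary phase was 1.05 ± 0.38 for HOP2, 1.10 ± 0.66 for SAE3, 0.55 ± 0.45 for SPS2, 0.67 ± 0.31 for PHO92 and -1.33 ± 0.37 for ALP1 (limma interaction adjusted p = 0.998 for each). Of 5946 genes tested for such a difference 0 were called (0.0%) by limma and 0 by edgeR, with 236 and 222 at an unadjusted p under 0.05 and at least 1.5-fold. DIT1 stood in stationary phase at 308.6 and 333.04 in Δisw2 against 319 and 312 in wild type. Its interaction of 1.74 ± 0.26 was not called either (limma adjusted p = 0.428). Without wild type replicate 2 of the diauxic shift 4 genes were called.

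**Figure D4:**
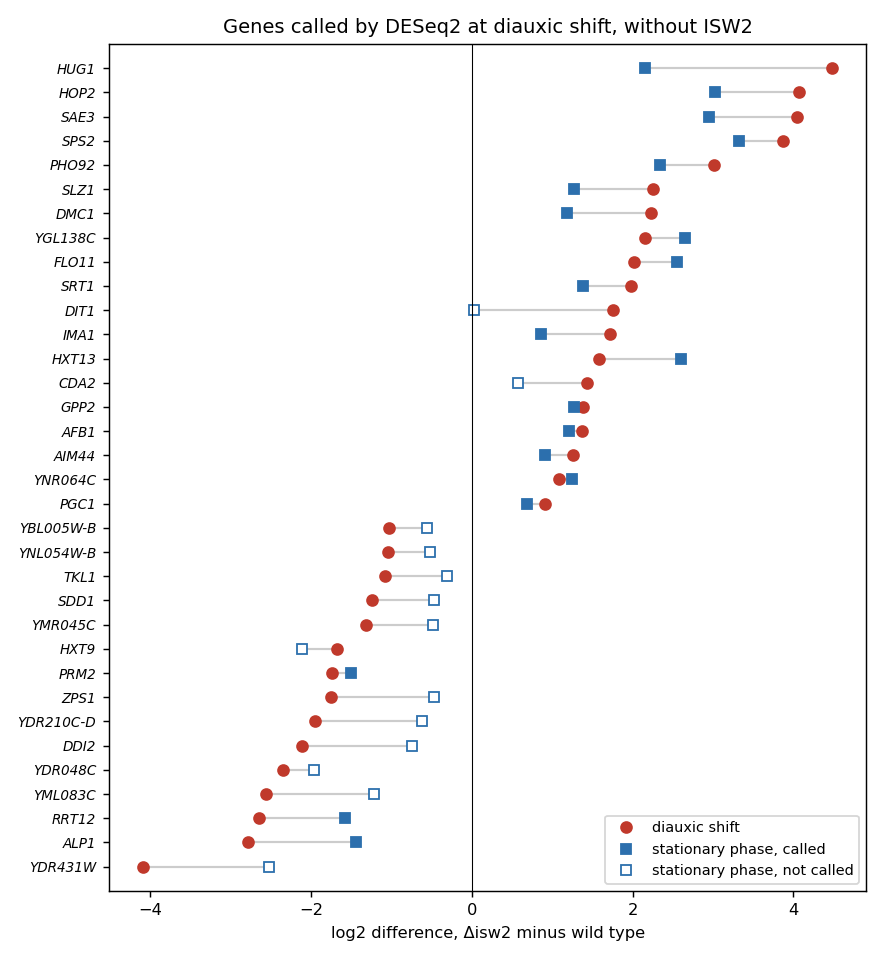
Log2 difference, Δisw2 minus wild type, of the genes that DESeq2 called at diauxic shift, ISW2 left out, with red circles for diauxic shift and blue squares for stationary phase (filled where limma called the gene there). All lie on the same side of 0 in both phases, and most higher genes are filled, DIT1 and CDA2 being open.

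The wider sets of genes were followed in the same way. Of the 163 genes whose groups stood apart and higher at diauxic shift 146 were tested in stationary phase, where 128 were above 0, 40 were called higher and none lower. Of the 203 apart and lower 176 were tested, and 43 were above 0, with 9 called lower and 1 higher. Of all genes tested in both phases 2970 of 5946 were above 0 in stationary phase. Over all genes tested there, 1.21% were called higher and 0.706% lower.

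The other 3 deletions at diauxic shift were measured against the same pair of wild type libraries, so that their values are given side by side and not as independent evidence. SAE3 had differences of 4.04 in Δisw2, 4.24 in Δsds3, 0.74 in Δtup1 and 0.11 in Δxbp1. HOP2 had 4.07 in Δisw2, 2.29 in Δsds3, 0.44 in Δtup1 and -0.56 in Δxbp1. PHO92 (3.01 in Δisw2 and 3.66 in Δsds3), DMC1 (2.23 and 2.75) and SLZ1 (2.25 and 3.07) likewise had high values in these strains, and values between -0.38 and 0.86 in Δtup1 and Δxbp1.

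HUG1, FLO11, DIT1 and HXT13 had differences of 4.48, 2.02, 1.76 and 1.58 in Δisw2, and of 5.94, 7.32, 7.81 and 9.50 in Δtup1. They lay above 0 in Δsds3 as well, at 2.76, 1.24, 2.38 and 3.43, and in Δxbp1 their values were 1.43, 0.91, 0.54 and -0.31. ALP1 had -2.78 in Δisw2, against -0.35 in Δsds3, 0.94 in Δtup1 and 0.39 in Δxbp1. RRT12 was lower in Δisw2 (-2.65) and higher in Δsds3 (1.35) and Δtup1 (3.29).

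**Figure D5:**
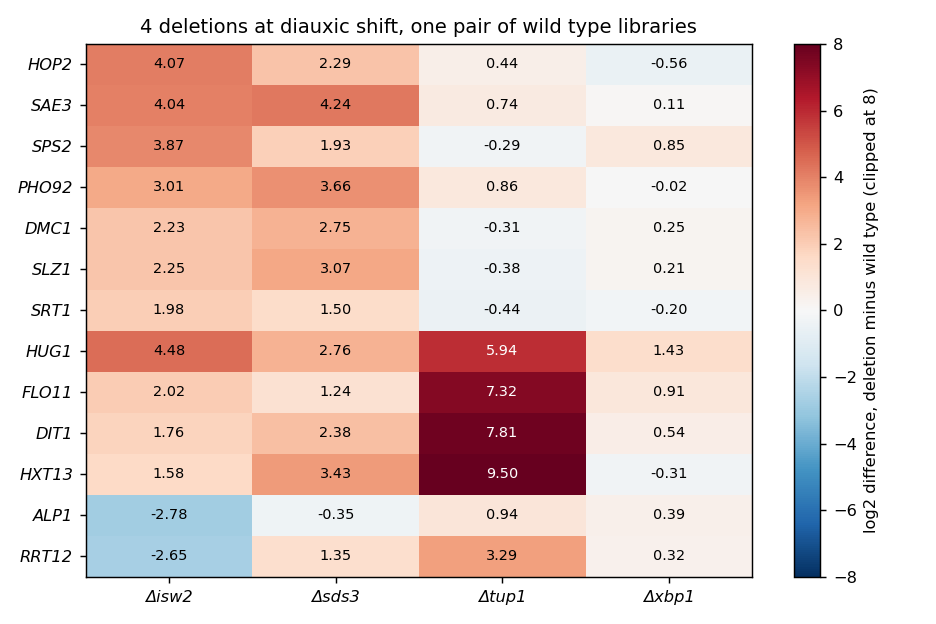
Log2 difference, deletion minus wild type, at diauxic shift for 13 genes (rows) in 4 deletion strains (columns), all against the same 2 wild type libraries, with colour clipped at 8 and the value printed in each cell. HOP2, SAE3, SPS2, PHO92, DMC1, SLZ1 and SRT1 are higher in Δisw2 and Δsds3 (SRT1 lowest, at 1.98 in Δisw2 and 1.4987 in Δsds3) and below 1 in Δtup1 and Δxbp1, while FLO11, DIT1 and HXT13 are highest in Δtup1.

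By place in the genome, the called genes were scattered. The medians of the 16 nuclear chromosomes lay between -0.04 and 0.04, and none of the 6 called genes was within 25 kb of a chromosome end or next to another called gene. Genes apart and lower were within 25 kb of an end in 15.1% of cases and those apart and higher in 6.72%, against 4.21% of all genes tested. They were also less expressed than most, with a median wild type level of 410 for lower genes and 229 for higher genes, against 1467 for all.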

How the data were processed

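Poly(A) RNA from whole cultures of W303 yeast was sequenced, with 2 libraries for each of 10 groups. The submitters' processing notes name Bowtie2, the sacCer3 build and DESeq2. The authors mapped reads to sacCer3 and deposited, for each deletion and phase, a table of gene counts divided by DESeq2 size factors, and these normalized signal values are the unit used here. The counting tool, annotation and strand setting are not given in the sources used here, so that reads of overlapping genes cannot be told apart. Within a library all deposited values were whole multiples of 1 step (tolerance 0.1), from which whole reads were recovered for 100% of values. Depth was 25508535 to 32558227 reads on genes in the 4 libraries compared and standard errors are those of the limma fit, from the spread between libraries.

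Genes were kept by filterByExpr on recovered reads. log2(normalized count + 1) was fitted in limma 3.58.1 (R 4.3.3, eBayes with trend, no block), with Benjamini-Hochberg adjustment over all 6247 genes tested. A gene was called at adjusted p under 0.05 and at least 1.5-fold. edgeR 4.0.16 and DESeq2 1.42.0 on the recovered reads were alternatives. The difference between phases was an interaction term over 8 libraries. The fit was tested on simulated data with 200 changed genes.

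Of 6843 gene IDs 5909 matched R64 (the sacCer3 sequence), and 934 had no match. Windows of 300 bases around start codons were cut from that genome. The text names ISW2 and its 2 neighbours on each side, the genes called, members of the lists on Isw2, its recruiters, mating type, meiosis and sugar transport, and otherwise genes chosen after their values were seen. The genes and the 38 lists were chosen with earlier results of these data known. Stationary phase columns give a group but no replicate, and are libraries A and B. The stationary phase tables of the other 3 deletions were not used here, and the authors' own tests were not used. 1 result is not reported here.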

Additional observations from a re-analysis of the deposited data

Results flagged for a closer look

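The early meiotic genes had list medians of opposite sign in the 2 phases, with every Δisw2 library on one side of both wild type libraries each time. At diauxic shift the median log2 difference was 0.0751, and the library medians, relative to each gene's mean over the 4 libraries, were 0.18 and 0.10 in Δisw2 against -0.20 and -0.05 in wild type. In stationary phase the median log2 difference was -0.1092, with -0.03 and -0.03 in Δisw2 against 0.02 and 0.10 in wild type. The difference between the phases was not tested for the list, and no early meiotic gene was called by the interaction term. With 1 library left out the diauxic shift median was 0.0109 (without Δisw2 replicate 1), 0.2091 (without Δisw2 replicate 2), 0.0773 (without wild type replicate 1) and 0.2467 (without wild type replicate 2). Such a change of sign was not particular to this list. The genes of other remodelers had medians of -0.04 at diauxic shift and 0.16 in stationary phase, again with the library medians apart in both phases.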

How the results depend on the processing

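The fit had 2 libraries a group, and the number of genes called moved with the test. The 6 calls stayed at 6 with TMM scaling, a pseudocount of 0.5, a mean count of at least 50, no minimum fold, a 2-fold minimum and edgeR. DESeq2 called 35 (19 higher, 16 lower), an unadjusted p under 0.05 gave 220 (97 higher, 123 lower), and an adjusted p under 0.01 left 1 (0 higher, 1 lower, ISW2). The fit over 10 libraries called 2 higher and 5 lower, and 3 of its calls were shared with the 6. No filter on low values and the test against 1.5-fold each left 1 lower gene. Leaving out 1 library called between 32 and 146 genes (15 to 109 higher, 9 to 37 lower), all 6 genes among them each time. The 146 came without wild type replicate 2, and 39 were called without wild type replicate 1. In these fits the lone library is assumed to vary like the other group. The replicate number as a block gave 135 calls (70 higher, 65 lower), the 6 among them. Same-numbered libraries deviated together (r = 0.58 over 6247 genes). The labels do not say what a replicate number marks, and with 2 pairs it cannot be told whether the numbers pair the libraries. For the interaction the block was not run, because the stationary phase columns carry no replicate number of the labels. The interaction called 0 to 4 genes over the fits that left out 1 library, 4 without wild type replicate 2 of the diauxic shift.

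Of 50 genes followed under 19 alternatives, IME1 turned to 0.11 in edgeR and DESeq2 and ran between -1.76 and 0.97 with 1 library left out, and DPB4 ran between -0.16 and 0.20. The other genes kept their direction. The cause of these changes was not tested beyond the libraries named.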

Other observations

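Genes of Ty retrotransposons, which were picked after their values were seen, lay lower in Δisw2. Of 48 gag and gag-pol genes listed 37 were tested, 34 had differences below 0 and the median was -0.85. In 19 (51.4%) both Δisw2 libraries lay below both wild type libraries by 1.5-fold or more, against 3.25% of all genes. Their normalized counts summed to 9196 and 10022 in the Δisw2 libraries, against 14431 and 17808 in the wild type libraries. Limma called none and DESeq2 called 4 lower. The copies share most of their sequence (91.5% to 97.7% of the 37-base stretches of these 4 occur elsewhere), so that they are not independent. In stationary phase 17 of 31 tested lay below 0 (median -0.05) and none was called.

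The letters CTCGAG, the core of the site of the repressor Xbp1, were common in promoters of genes that stood apart and lower in Δisw2. They stood in 37 of 165 such windows, of which 12 belonged to Ty genes that share sequence. With Ty genes left out they stood in 25 of 146 (17.1%), against 247 of 5707 (4.33%) for all genes tested. Seen the other way, 10.1% of genes with the letters stood apart and lower, against 2.22% of genes without them, but their median difference was only -0.08, against 0.00 without the letters, and in stationary phase -0.03. Among the 25 were the septin gene CDC3, with 271 and 349 in Δisw2 against 519 and 695 in wild type, the cell wall gene GAS1, with 1269 and 1427 in Δisw2 against 2780.0 and 2238 in wild type, and the sterol reductase gene ERG4, with 276 and 481 in Δisw2 against 646 and 769 in wild type. The Δxbp1 strain, measured against the same wild type libraries, had differences of 1.72, 1.52 and 2.10 for these genes, which are among its highest of the 25. Of the 25, 19 lay above 0 in Δxbp1 and 6 below (median 0.57, lowest -0.66 for YEF3). Over all 247 genes with the letters the Δxbp1 median was 0.45, against -0.05 without them. XBP1 itself had 34282 and 27519 in Δisw2 against 22973 and 27124 in wild type. The counts were made after the values were seen and are a description of the sequence.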
